A study of Homo sapiens with 3 samples.

Results

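DCBLD2 and NRP1 are receptor genes on chromosomes 3 and 10 whose nuclear RNA was dense in regions of N6-methyladenosine (m6A), a methyl mark on adenosine in RNA. The sample was MDA-MB-231, a human cell line from a breast cancer. A rabbit anti-m6A antibody was used on its nuclear RNA in 2 libraries, and rabbit IgG served as the control in 1 library. All 3 libraries came from this 1 cell line, with no other treatment in the labels, which do not say whether the m6A libraries were separate cultures. The deposited outcome was 1 list of 41836 regions in hg19, without columns per library. Depth, IgG background and how well both m6A libraries matched cannot be read from it. No value below has a replicate error, and no test was possible.

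Both genes were chosen by their windows in that list, with the number of regions in each already known. A region belongs to a gene when its midpoint falls between 98514 and 98621 kb of chromosome 3 for DCBLD2, or between 33466 and 33624 kb of chromosome 10 for NRP1. By this rule DCBLD2 held 69 regions and NRP1 held 53, together 122 of the 41836. The windows are 107 and 158 kb long, and both genes are transcribed from the minus strand. The count and density of regions are therefore a description of the choice and not a finding about it. The regions of 1 gene share a locus and are not replicates of each other.

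NRP1 (neuropilin 1) is a transmembrane co-receptor for semaphorins and vascular endothelial growth factor, which signals together with plexins and VEGF receptors. DCBLD2, also called ESDN or CLCP1, is a transmembrane protein with the same kinds of extracellular modules as neuropilins, CUB and discoidin domains, and with an LCCL domain of its own. Both are expressed in mesenchymal-like tumour cells. m6A is deposited during or soon after transcription, mainly by the METTL3 and METTL14 complex. Nuclear RNA still contains introns, so an m6A region in such RNA can lie in an exon or in an intron.

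The regions of both genes ran along nearly the whole gene. In DCBLD2 the first minus-strand region in the direction of transcription lay 0.653 kb from the upstream end of the window (chr3:98620325-98620371, 47 nt). The last lay close to the downstream end (chr3:98515720-98515769, 50 nt), so that the regions spanned 104.7 kb, or 97.8% of the window. In NRP1 the first region lay 0.583 kb from the upstream end (chr10:33623395-33623440, 46 nt) and the last at chr10:33467584-33467694 (111 nt), a span of 155.9 kb or 98.6% of the window. Both genes thus had a region within 1 kb of the upstream end and regions up to the far end.

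**Figure D1:**
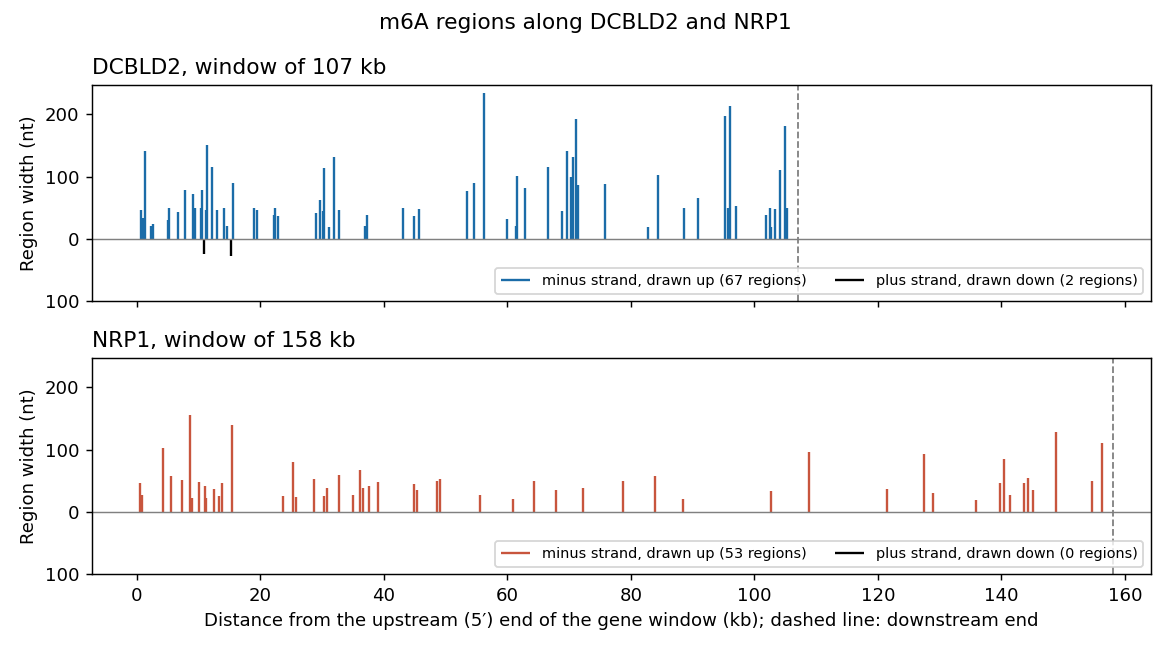
Position and width of every m6A region in DCBLD2 (top) and NRP1 (bottom); the horizontal axis is the distance in kb from the upstream end of the gene window and the height of each line is the region's width in nt, drawn up for the minus strand and down for the plus strand. DCBLD2 has 67 minus-strand and 2 plus-strand regions over 107 kb, and NRP1 has 53 minus-strand regions over 158 kb with wider empty stretches after the first 50 kb.

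The regions followed the strand of the genes. In DCBLD2 67 of 69 regions (97.1%) were on the minus strand, and in NRP1 all 53 were, whereas 57.4% of the whole list was on the minus strand. The 2 plus-strand regions of DCBLD2 were short, 27 nt at chr3:98605641-98605667 and 25 nt at chr3:98610011-98610035. They lay 15.3 and 11.0 kb from the upstream end, 190 and 174 nt from the nearest minus-strand region, and overlapped none.

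The runs of minus-strand regions stopped at the ends of the genes. Within 100 kb on either side of the DCBLD2 window there was no minus-strand region. The nearest lay 948.4 kb upstream (chr3:99569373-99569490) and 188.5 kb downstream (chr3:98325492-98325523). NRP1 had no region of either strand within 100 kb of its window, and its nearest minus-strand regions lay 796.4 kb upstream (chr10:34420447-34420479) and 219.9 kb downstream (chr10:33246069-33246110). The 50 kb upstream of the DCBLD2 window held 2 plus-strand regions, the nearest 8.18 kb from it (chr3:98629178-98629201). Just outside the downstream limit of DCBLD2 a plus-strand region of 30 nt ended 0.011 kb below the window (chr3:98513960-98513989). In the 50 kb downstream lay 8 plus-strand regions.

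DCBLD2 has a neighbour on the opposite strand there. In GENCODE release 29, which is in GRCh38 and was used here only for names, order and lengths, the sialyltransferase gene ST3GAL6 lies on the plus strand and overlaps the downstream end of DCBLD2 by 25.3 kb. In the 25.3 kb at the downstream end of the hg19 window all 15 regions were on the minus strand and 0 on the plus strand. The next protein-coding genes of NRP1 in GENCODE are ITGB1 (integrin beta 1) downstream and PARD3 (a cell polarity scaffold) upstream, both on the same strand as NRP1. An antisense gene on the plus strand, AL121748.2, overlaps NRP1 by 2.53 kb.

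DCBLD2 carried more regions for its length than NRP1. It held 0.645 regions per kb, or 1 per 1.55 kb, and NRP1 held 0.335 per kb, or 1 per 2.98 kb, a ratio of 1.92. Regions covered 46.1 nt of each kb in DCBLD2 and 17.3 nt in NRP1, which is 4.61% and 1.73% of the windows. The mean width was 71.6 nt in DCBLD2 and 51.5 nt in NRP1.

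At a joining distance of 1 kb, the regions of DCBLD2 formed larger groups than those of NRP1. When minus-strand regions at most 1 kb apart were counted as 1 cluster, DCBLD2 had 27 clusters and NRP1 had 38. This is 0.252 and 0.241 clusters per kb, or 1 cluster per 3.96 and 4.16 kb, a ratio of 1.05. This ratio depends on the joining distance, and was 1.53 at 0.3 kb, 1.44 at 0.5 kb, 1.05 at 2 kb and 0.914 at 3 kb. A distance of 1 kb lies above the median gap of DCBLD2 and below that of NRP1. Joining thus lowers the count of DCBLD2 more by construction. At a fixed distance, a higher density also raises the regions per cluster and the share of regions in clusters. Whether the genes differ in grouping apart from density was not tested. At 1 kb the number of regions per cluster was 2.48 in DCBLD2 and 1.39 in NRP1, a ratio of 1.78. Of the DCBLD2 clusters 12 were single regions and 6 held 4 or more. Of the NRP1 clusters 27 were single regions and none held more than 3. Clusters of at least 2 regions contained 82.1% of the minus-strand regions in DCBLD2 and 49.1% in NRP1.

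The largest clusters of DCBLD2 held 7 regions each. One lay at the downstream end (chr3:98515720-98519191), where 3.47 kb held 496 nt of regions with a median width of 49 nt, and 2 of its regions exceeded 100 nt. The other lay 30.9 kb from the upstream end (chr3:98588270-98591974) and held 459 nt in 3.71 kb, again with 2 regions over 100 nt. The largest clusters of NRP1 held 3 regions each. Of these 4, a pair lay near the upstream end (chr10:33610163-33611497 and chr10:33612758-33613854) and a pair toward the downstream end (chr10:33478796-33480370 and chr10:33482660-33484244). None of them had a region over 100 nt. The 5 kb with the most regions lay near the upstream end in both genes. In DCBLD2 it held 8 regions and 557 nt (chr3:98606417-98610555), among them regions of 116 and 151 nt. In NRP1 it held 7 regions and 245 nt (chr10:33610163-33614979), with widths of 22 to 48 nt.

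Spacing showed the same order, as a gene with more regions per kb has shorter gaps on average. The median gap between neighbouring minus-strand regions was 0.748 kb in DCBLD2 (quartiles 0.349 and 1.75 kb, 66 gaps) and 1.59 kb in NRP1 (quartiles 0.847 and 4.36 kb, 52 gaps). Over all same-strand gaps of the list the median was 4.69 kb. Those include gaps between genes, and both genes were chosen with their counts known, so shorter medians here follow from the choice. Gaps of at most 1 kb made up 60.6% in DCBLD2 and 28.8% in NRP1, and gaps above 5 kb made up 6.06% and 23.1%. The closest pair of DCBLD2 was 111 nt apart (chr3:98610317-98610395 and chr3:98610507-98610555). The closest pair of NRP1 was 172 nt apart (chr10:33612758-33612779 and chr10:33612952-33612993). In the whole list no same-strand pair was closer than 101 nt, which limits how small a gap can be.

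The longest empty stretches were longer in NRP1. Its gaps of 14.1 kb (between chr10:33521347-33521379 and chr10:33535507-33535527) and 12.5 kb (between chr10:33502562-33502598 and chr10:33515107-33515202) were the only ones above 10 kb in either gene. Its next longest, of 8.14 kb, lay near the upstream end (between chr10:33600256-33600280 and chr10:33608420-33608558). In DCBLD2 the 3 longest gaps were 7.67 kb (between chr3:98567460-98567536 and chr3:98575208-98575255), 6.93 kb (between chr3:98538197-98538215 and chr3:98545147-98545234) and 6.06 kb (between chr3:98591934-98591974 and chr3:98598038-98598074).

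Region widths also differed in shape more than in the median. The median width was 49 nt in DCBLD2 (quartiles 38 and 89 nt, range 19 to 234) and 46 nt in NRP1 (quartiles 30 and 55 nt, range 19 to 156), and it was 45 nt over the whole list. Regions wider than 100 nt numbered 16 of 69 in DCBLD2 (23.2%) and 5 of 53 in NRP1 (9.43%), against 10.3% of the whole list. Regions under 30 nt made up 14.5% in DCBLD2, 24.5% in NRP1 and 19.9% of the list. The width of exactly 49 nt, the most frequent of the list at 8.79%, was held by 10 DCBLD2 regions (14.5%) and 3 NRP1 regions (5.66%). Among the minus-strand regions of the list, 11.5% had this width. NRP1 was thus near the list in its share of wide regions, and DCBLD2 was above it. The names of the regions contain the word merged, and the part that any joining of close regions had in these widths was not tested.

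**Figure D2:**
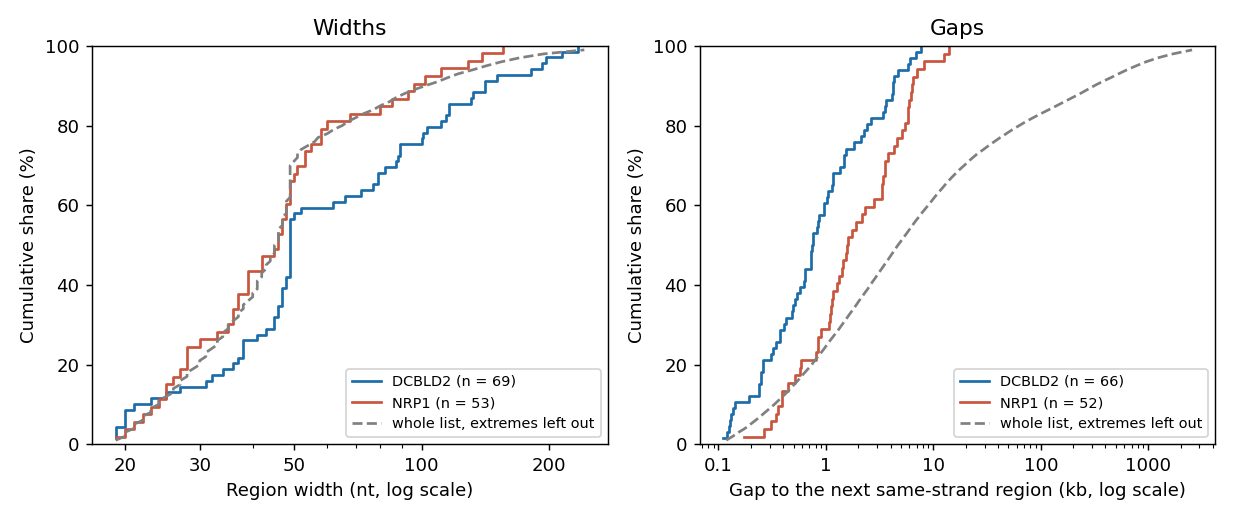
Cumulative shares of region widths in nt (left, all members) and of gaps to the next minus-strand region in kb (right), both on log axes. Curves are for DCBLD2, NRP1 and, as a dashed line, the whole list. The gaps of the list are all same-strand gaps, also those between genes. The lowest and highest percent of the list are left out. The NRP1 widths run close to the list, those of DCBLD2 reach further to the right above 50 nt, and above 1 kb the gap curves of both genes lie left of the list, with medians of 0.748 and 1.59 kb.

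The wide regions of DCBLD2 were spread over the gene. The 5 widest were 234 nt at chr3:98564651-98564884 near the middle, 214 nt at chr3:98524756-98524969 and 197 nt at chr3:98525597-98525793 near the downstream end, 192 nt at chr3:98549737-98549928, and 181 nt at chr3:98516020-98516200 beside the last region. The pair of 214 and 197 nt lay within 1 kb of each other. With the minus strand cut into 3 equal parts from the upstream end, 5, 6 and 5 of the regions over 100 nt fell in the successive parts. These were 15.6%, 33.3% and 29.4% of the 32, 18 and 17 regions there, so the share was lowest upstream. The median width was 48, 79.5 and 52 nt.

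In NRP1 all 5 regions over 100 nt lay toward the ends. They were 156 nt at chr10:33615325-33615480, 139 nt at chr10:33608420-33608558 and 102 nt at chr10:33619616-33619717 within the upstream 20 kb, and 129 nt at chr10:33475150-33475278 and 111 nt at chr10:33467584-33467694 within the downstream 10 kb. The middle of its 3 equal parts had none, and its 9 regions had a median width of 35 nt. The middle part was where the genes differed most in density as well, with 0.505 regions per kb in DCBLD2 and 0.171 in NRP1, a ratio of 2.95.

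In number of regions, both genes were densest toward the upstream (5′) end. In covered nt DCBLD2 was more even. From the upstream end, its full bins of 10 kb held 588, 742, 227, 414, 133, 432, 505, 599, 171 and 578 nt. Its last 7 kb held 496 nt. Of the minus-strand regions, 32 of 67 in DCBLD2 (47.8%) and 30 of 53 in NRP1 (56.6%) lay in the upstream one of the 3 equal parts, where an even spread would put 33.3%. The middle parts held 18 and 9, and the downstream parts 17 and 14. With 0 for the upstream limit of the window and 1 for the downstream limit, the mean position was 0.436 in DCBLD2 and 0.395 in NRP1, and the medians were 0.348 and 0.285. Toward the downstream end the genes differed. In DCBLD2 the last 7 kb held 7 regions. In NRP1 the bin from 140 to 150 kb held 6, after 2 in the bin before it, and the final 8 kb held 2.

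At equal distance from the upstream end the genes were closer to each other than over their whole length. In the first 50 kb DCBLD2 held 37 regions and NRP1 held 30, which is 0.74 and 0.60 per kb, a ratio of 1.23. In the first 10 kb they held 11 and 7 (ratio 1.57), and in the first 100 kb 60 and 38 (1.58). Counted from the downstream end, they held 8 and 3 in the last 10 kb (ratio 2.67), 27 and 14 in the last 50 kb (1.93) and 59 and 22 in the last 100 kb (2.68). The bins of 10 kb held 3 to 11 regions in DCBLD2 (median 5, 10 full bins) and 0 to 8 in NRP1 (median 3, 15 full bins). In NRP1 2 bins were empty, and from 50 kb to 140 kb none held more than 3.

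**Figure D3:**
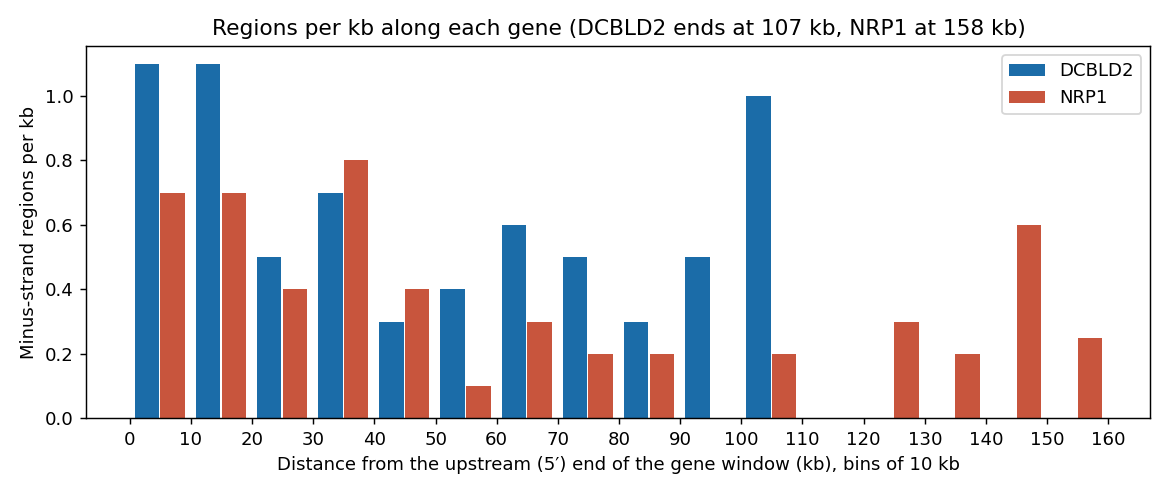
Minus-strand m6A regions per kb in successive 10-kb bins from the upstream end of the window, with DCBLD2 in blue and NRP1 in red; the last bin of DCBLD2 is 7 kb long and that of NRP1 is 8 kb long. Both genes are dense in the first 40 kb, and NRP1 stays at or under 0.3 regions per kb from 50 to 140 kb, with 2 empty bins.

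By the lengths of GENCODE exons, a large part of these regions lay outside them. In that annotation the exons of all transcripts of DCBLD2 form 19 blocks with a summed length of 11.3 kb, 10.7% of a gene of 105.7 kb. Those of NRP1 form 23 blocks of 11.5 kb, 7.26% of 158.8 kb. No exon position was carried to hg19, but the lengths alone set a limit if they hold in both builds. Placed freely wherever they would touch the most regions, as many blocks of these lengths could touch at most 45 of the 67 minus-strand regions of DCBLD2 and 38 of the 53 of NRP1. At least 22 (32.8%) and 15 (28.3%) regions then lay wholly outside exons. With only the exons of the longest transcript that GENCODE marks as principal, 16 in DCBLD2 and 18 in NRP1, at least 37 (55.2%) and 28 (52.8%) lay outside them. The longest blocks were used at their own lengths and the shorter ones were lengthened. The bound is therefore a minimum and does not give the true share.

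Long introns give a second limit of this kind. In the same principal transcripts the longest intron is 31.9 kb in DCBLD2 and 59.9 kb in NRP1. Any stretch of 31.9 kb inside the DCBLD2 window, wherever placed, held at least 12 whole minus-strand regions, and any stretch of 59.9 kb inside the NRP1 window held at least 8. The longest gap between regions was only 7.67 kb in DCBLD2 and 14.1 kb in NRP1. If the intron lengths hold in hg19, the longest intron of each gene held at least these numbers of m6A regions.

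Joined at up to 10 kb, the 67 minus-strand regions of DCBLD2 formed 1 chain, and those of NRP1 formed 3 chains of 38, 2 and 13 regions from the upstream end down. DCBLD2 ranked 7 by number among the 16073 chains of the list. The 38-region chain of NRP1 (chr10:33535507-33623440) shared rank 25 with 4 others of the same size. Among the 143 chains of 20 or more regions, the DCBLD2 chain stood higher in length than in density. It ranked 8 by span (104.7 kb, median 52.8 kb) and 59 by regions per kb (0.640, median 0.571). The NRP1 chain ranked 15 by span (87.9 kb) and 109 by regions per kb (0.432). Both chains were thus long, and neither was among the densest of the 143. Short chains needed 20 regions to be kept and are dense by construction, so the density rank depends on span. Chains of 102.8, 103.9, 104.9 and 105.8 kb, close to DCBLD2 in span, held 0.574, 0.741, 0.563 and 0.312 regions per kb. Those of 85.8, 86.3, 88.4 and 90.6 kb, close to the NRP1 chain, held 0.361, 0.324, 0.317 and 1.00.

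The same 2 chains differed in width, but the NRP1 chain holds only 38 of the 53 regions of that gene. Over all 53 regions, 9.43% exceeded 100 nt. In the DCBLD2 chain 23.9% of regions exceeded 100 nt, rank 26 of 143, just above the upper quartile of the large chains (23.1%). In the NRP1 chain 7.89% did, rank 120, below their lower quartile (9.76%). Regions covered 4.67% of the DCBLD2 chain (rank 51) and 2.09% of the NRP1 chain (rank 131), against a median of 3.86%. The mean position within the chain was 0.439 in DCBLD2 (rank 97 from the downstream side) and 0.373 in NRP1 (rank 132), where the middle 50% of large chains lay between 0.426 and 0.524. The NRP1 chain was therefore among the large chains that lean furthest upstream.

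**Figure D4:**
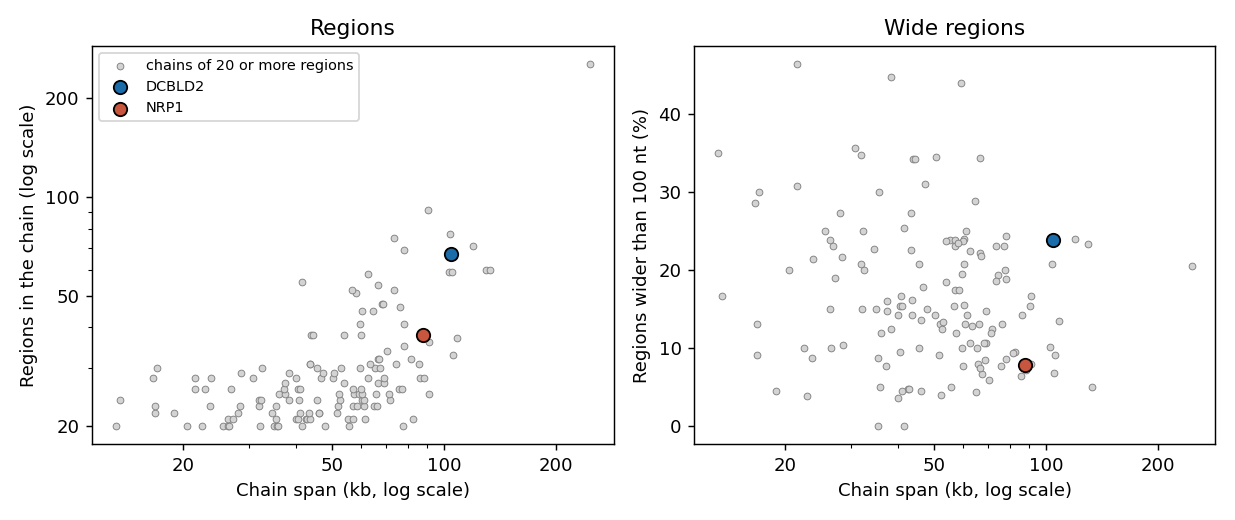
Each grey point is 1 of the 143 chains of 20 or more same-strand regions joined at up to 10 kb, and the chains of DCBLD2 and NRP1 are coloured; the horizontal axis is the span in kb on a log scale, and the vertical axes are the number of regions on a log scale (left) and the share of regions wider than 100 nt in percent (right). DCBLD2 lies at 67 regions, 104.7 kb and 23.9%, and NRP1 at 38 regions, 87.9 kb and 7.89%.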

How the data were processed

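Per the labels' protocols, anti-m6A (2 libraries) or IgG (1) was used on nuclear RNA of MDA-MB-231 cells. Per the submitters' processing notes, Bowtie2 and hg19 were used. The peak caller, its thresholds, the use of the IgG library and the merging of libraries are not given in the sources used. The deposited list gives a start, an end, a strand and a score for each region. The score as deposited is 1 for every region, so only positions were used, and precision and depth are unknown.

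Genes and lists were chosen with earlier results of these data known. The design was fixed as description without tests. Windows came from the rule, midpoints set membership, and starts are printed counted from 1. Width is the end minus the deposited start. Gaps, clusters (1 kb), chains (10 kb), positions and the 3 equal parts used the minus strand; counts, densities, widths and coverage used both strands. Named regions were, per gene, the first and last, the 5 widest, the plus-strand ones, the closest pair, those at the 3 longest gaps and those of the densest 5 kb; the largest clusters and the outside neighbours were added after their values were seen. The clusters, the bounds from exon and intron lengths, and the ranks of chains were likewise chosen after the list was seen. The genes of the semaphorin and VEGF pathway were not analysed here, because no annotation in hg19 was used. No region sequence is printed, because no hg19 sequence was used, and proteins were not used here. GENCODE release 29 (GRCh38) gave names, lengths and transcript sequences only. The functions were tested on simulated data. Python 3.11.15, numpy 2.4.6 and pandas 2.3.3 were used.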

Additional observations from a re-analysis of the deposited data

How the results depend on the processing

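Of 81 recomputed values 56 stayed close (within 1.5 times, or 0.1 for a position), 24 moved further, and 1 changed direction. That one was the ratio of minus-strand clusters per kb, 1.05 at 1 kb and 0.914 at 3 kb, among distances added after seeing the data. Clusters per kb were 0.495 (0.3 kb), 0.411 (0.5 kb), 0.159 (2 kb) and 0.121 (3 kb) in DCBLD2, and 0.152 (2 kb) and 0.133 (3 kb) in NRP1, since longer distances join more regions. Counting clusters at 1 kb once, over both strands, lowered DCBLD2 to 0.271 per kb and the ratio to NRP1 from 1.92 to 1.13. The same count on the minus strand raised the median gaps to 2.53 kb in DCBLD2 and 3.34 kb in NRP1 (ratio 0.757), since close regions are joined. Only regions wider than the list's median gave 0.171 per kb in NRP1 and 0.439 in DCBLD2, since fewer regions count in both. The ratio then rose from 1.92 to 2.57. The difference in median width, 3 nt, was 6.5 nt without 49-nt regions and 5.5 nt without either the upstream or the downstream 10 kb; the cause was not tested. The median position in place of the mean was 0.285 in NRP1. The difference in mean position, 0.041, is smaller than the limit of 0.1. Its value of 0.0176 without the downstream 10 kb therefore still counted as close. For NRP1 the minus strand only repeats the same values, because it has no plus-strand region. Chains joined up to 1 kb numbered 27 in DCBLD2 and 38 in NRP1, with at most 7 and 3 regions, and NRP1 formed 1 chain at 50 kb. The share of fixed windows at least as dense moved to 0.0152% for DCBLD2 at 200 kb, and for NRP1 to 0.403% at 100 kb and 0.106% at 200 kb. Leaving out a library and a stricter score were not run: values per library are lacking and the score is constant. No paired analysis was possible because the list has no columns per library.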

Other observations

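Set beside fixed windows tiled along all chromosomes, both genes stood at the dense end of the list. Of 8912 windows of 107 kb that held at least 1 region, 4 (0.0449%) were as dense as DCBLD2 or denser, and the median window held 0.028 regions per kb. Of 7405 windows of 158 kb, 17 (0.23%) were as dense as NRP1 or denser, with a median of 0.019 per kb. The gene windows begin and end with the genes and the tiled ones do not, and both genes were chosen with their counts known, so the ranks are a description.

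The letters of the m6A consensus were no more frequent in the spliced RNA of DCBLD2 than in that of NRP1. In the longest principal GENCODE transcript of DCBLD2 (6.12 kb), GGACT, a common form of the consensus, occurred 5 times on the RNA strand, or 0.817 per kb. In that of NRP1 (5.88 kb) it occurred 7 times, or 1.19 per kb. The median over the longest transcript of 19702 protein-coding genes was 0.927 per kb, and 88.8% of these transcripts held it. The shorter GGAC, which contains every GGACT, occurred 2.45 times per kb in DCBLD2 and 3.91 in NRP1, with a median of 3.77 and a share of 99%. Introns were not searched, and a match of letters is not a methylated site.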
